A study of Mus musculus with 8 samples.

Results

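The input chromatin of menin-null mouse embryonic stem cells (mESCs) was compared with that of wild-type (wt) mESCs to find stretches of the genome present in more or fewer copies in one line than in the other. Both input libraries of the mESCs were taken, 2 of the 8 libraries of the series, and their tags were counted in fixed 200-kb bins on the autosomes, of which 11805 of 12350 held enough tags to be kept. The wt line was TC-1 and the menin-null line 3.2N, both on the 129S6/SvEvTac background, and the menin-null line lacks functional Men1. Both were grown with leukemia inhibitory factor on irradiated fibroblast feeders that were removed by repeated short platings before harvest, and input DNA holds no expression by which the cell type could be checked. The other libraries were H3K4me3 ChIP of the same mESCs, and input and H3K4me3 ChIP of the pancreatic islet-like endocrine cells (PILECs) differentiated in vitro from each line. Each line was represented by 1 input library at each stage and there were no replicates, so every interval below covers counting error alone and compares libraries, not genotypes.

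Input chromatin is sheared DNA that was not enriched with an antibody, so the number of uniquely aligned reads (tags) from a region follows the number of copies of that region in the cells, besides the openness of the chromatin, the base composition and the replication of the DNA. Mouse ES cells are known to gain whole chromosomes and to carry smaller losses after long culture, and trisomy 8 is among the changes most often described in them. Men1 encodes menin, a subunit of protein complexes that deposit the H3K4me3 mark, and the null allele was made by removing a block of its exons. All positions are of the mm9 genome. A ratio is given as the log2 of menin-null over wt tags after subtraction of the value of the median bin, so that 0 marks the median autosomal bin. On this scale 1 copy against 2 would be at -1 and 3 copies against 2 at 0.58. Where copies are given below they are the mean over all cells of the library and hold only if the wt line had 2 copies.

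The sequences that carry the findings are of 3 kinds. The first is the excised part of Men1, shown by exons 3, 7 and 8 on the plus strand of chromosome 19, with capitals for the bases lying under a tag of either wt input (mESC or PILEC). Exon 3 covers chr19:6336725-6336933, exon 7 chr19:6338283-6338419 and exon 8 chr19:6338826-6338961. No base of the 3 exons lay under a tag of a menin-null input.
Men1 exon 3: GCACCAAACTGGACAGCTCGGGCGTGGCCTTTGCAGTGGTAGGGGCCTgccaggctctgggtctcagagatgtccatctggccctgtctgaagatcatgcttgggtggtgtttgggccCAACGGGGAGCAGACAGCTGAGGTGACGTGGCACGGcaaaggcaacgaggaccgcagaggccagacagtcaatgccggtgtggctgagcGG
Men1 exon 7: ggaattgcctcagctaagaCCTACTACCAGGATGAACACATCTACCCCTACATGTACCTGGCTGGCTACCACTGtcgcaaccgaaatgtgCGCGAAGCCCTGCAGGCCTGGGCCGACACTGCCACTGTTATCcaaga
Men1 exon 8: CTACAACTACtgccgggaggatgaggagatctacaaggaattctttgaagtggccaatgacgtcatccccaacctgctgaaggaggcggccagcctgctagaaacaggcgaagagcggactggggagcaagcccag
Both Men1 RT-PCR primers of the study fell inside this block, the forward primer in exon 4 (chr19:6337176-6337197) and the reverse primer in exon 7 (chr19:6338296-6338317).
Men1 forward: gtacatgcgctgcgaccgtaag
Men1 reverse: tcatcctggtagtaggtcttag

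The second is the pair of amplicons with which the study assayed the Meg3 promoter, because both lie in a stretch of chromosome 12 that had fewer input tags in menin-null mESCs. Each primer matched 1 place within the distal segment of chromosome 12 described below. The first pair spans chr12:110779100-110779336 across the annotated start of Meg3, and the second spans chr12:110778804-110778958 just upstream.
Meg3p-1F: ttccggccaatcacttttag
Meg3p-1R: tcaggcaaaggatggctaac
Meg3p-2F: agcccctgactgatgttctg
Meg3p-2R: gagccctagttgtggatgga
The third is the set of microRNAs encoded in the same segment, of which 62 genes are annotated and 50 matched a RefSeq entry by symbol, giving 93 mature sequences. Among them 5 seeds (bases 2 to 8) are each carried by 2 mature sequences, and both sequences are shown for 2 of these seeds, in capitals. The sequences are those of RefSeq and were matched by name, so no mm9 position within the gene is given. miR-379-5p and miR-1193-5p carry one of the seeds, and miR-379-3p and miR-411-3p the other.
mmu-miR-379-5p: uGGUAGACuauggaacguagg
mmu-miR-1193-5p: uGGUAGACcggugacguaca
mmu-miR-379-3p: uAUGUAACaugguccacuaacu
mmu-miR-411-3p: uAUGUAACacgguccacuaacc

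The wt mESC input held 4248298 tags and the menin-null mESC input 3744616, and a kept bin held a median of 318 and 285 tags. The PILEC inputs were deeper, with 19016697 tags in wt and 18120807 in menin-null PILECs. Tags at a position and strand already seen made up 1.83% of the wt and 1.70% of the menin-null mESC input. The bin ratios had a standard deviation of 0.16, of which counting alone gives about 0.12. The ratio fell slightly with the GC share of the bin, with a Spearman correlation across the 11805 bins of -0.24 in the mESC inputs and -0.13 in the PILEC inputs. Across 20 strata of GC share the median ratio ran from 0.08 in the stratum poorest in GC to -0.08 in the richest.

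Men1 was examined first, because it checks the labels. Over exons 3 to 8 and the introns between them (chr19:6336725-6338961) the wt mESC input held 17 tags and the menin-null mESC input 0. The wt PILEC input held 22 and the menin-null PILEC input 0. The block was thus without tags in both inputs labelled menin-null, and the H3K4me3 libraries of menin-null mESCs and PILECs also had 0 tags there, beside 0 in wt mESCs and 20 in wt PILECs. At the wt rate the menin-null mESC input would have held 15.1 tags, so a count of 0, which allows up to 3 tags, allows up to 19.9% of the wt rate, and in the PILEC input up to 14.3%. The part of the gene before exon 3 held 9 tags in wt and 7 in menin-null mESCs, and the part after exon 8 held 17 and 9, so both ends of the gene were present in menin-null cells. Over all 4 menin-null libraries, no tag started in the 3050 bp between positions 6336058 and 6339109, while the wt mESC input had 18 tags in this gap and the wt PILEC input 33. The gap therefore reached at most 667 bp upstream of exon 3 and 148 bp downstream of exon 8, which bounds the missing block to the introns on either side.

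**Figure D1:**
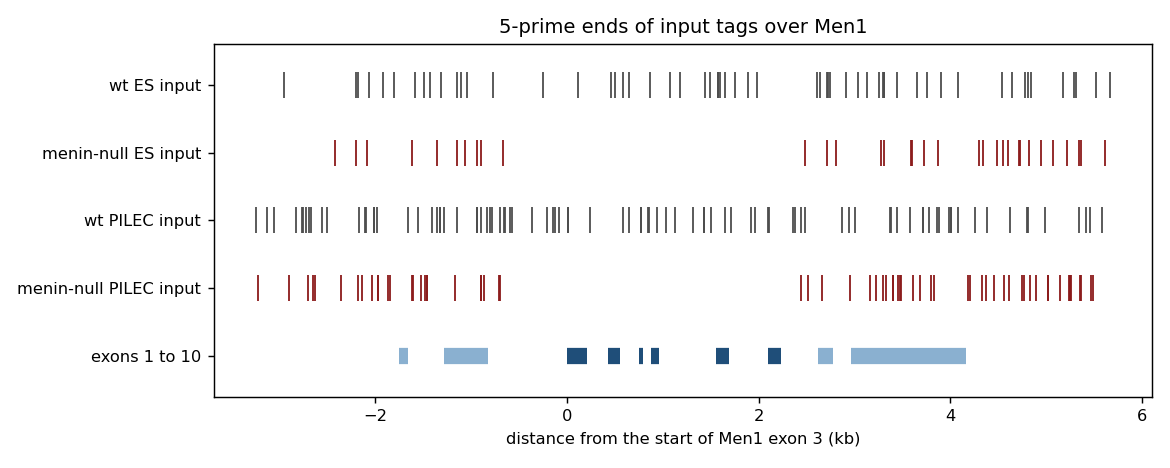
Tags of the 4 input libraries over Men1, by the distance of their 5' end from the start of exon 3 in kb (x axis), with 1 tick for each tag, 1 row for each library and the 10 exons as boxes below, exons 3 to 8 darker. Both menin-null inputs are empty over exons 3 to 8, where the wt mESC input has 17 tags and the wt PILEC input 22.

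Across the autosomes, 79 of the 11805 bins (0.669%) had a ratio past 0.5 in either direction. Of these, 50 bins (0.424%) lay below -0.5 and 36 of them were on chromosome 12, in the pair of segments described next, with ratios down to -1.31. The 29 bins above 0.5 (0.246%) reached 0.88, and 12 of them were on chromosome 8, which held 621 of the 11805 kept bins. Against bins of like GC share the split was 61 below and 18 above. Runs of at least 5 neighbouring bins with a running median over 0.3 in size numbered 8. They were 3 on chromosome 1, 3 on chromosome 8 and 2 on chromosome 12, and no other autosome had one. A wider scan, added after the bins had been seen, took a running median of 51 bins over 0.1 in size for at least 25 bins. It found 5 domains, of which 1 lay around the distal segment of chromosome 12, from 105.8 to 114.4 Mb. The others were the distal part of chromosome 1, a stretch of chromosome 6, the whole of chromosome 8 and a stretch of chromosome 10.

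**Figure D2:**
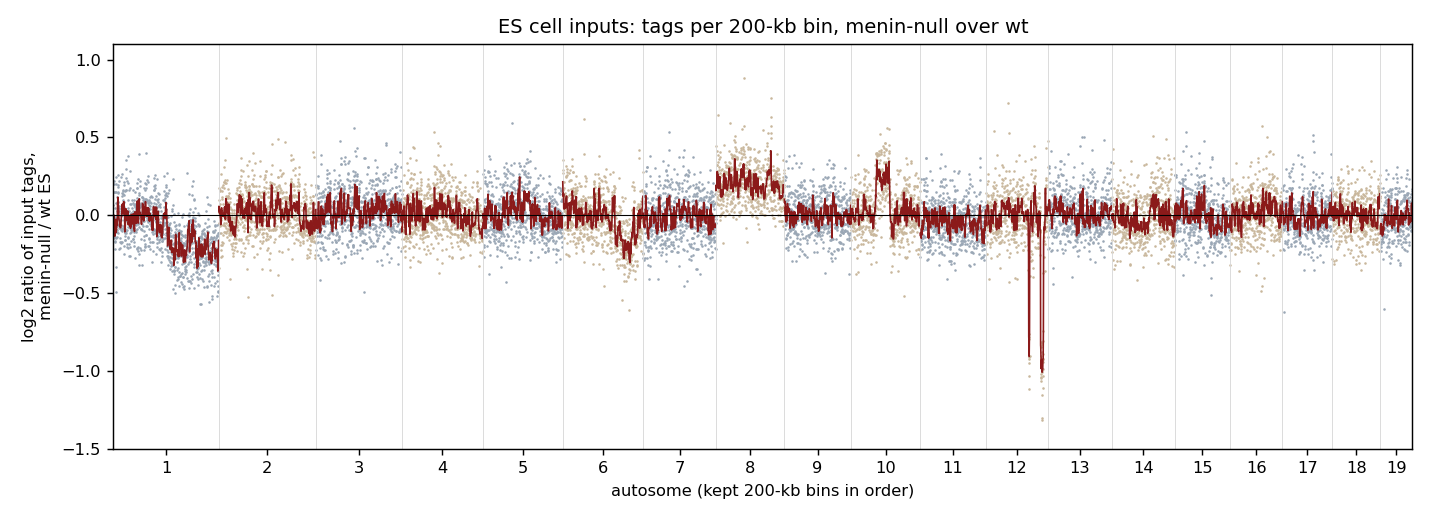
Log2 ratio of menin-null over wt mESC input tags (y axis) in the 11805 kept bins of 200 kb, in order along autosomes 1 to 19 (x axis), with 1 point for each bin and a line for the running median of 11 bins. Chromosome 8 lies above 0 along its whole length, stretches of chromosomes 1, 6 and 10 are displaced by about 0.2, and 2 stretches of chromosome 12 drop to about -0.9.

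The distal segment of chromosome 12, from 107.4 to 113.0 Mb, was the deepest loss. It held 14889 input tags in wt mESCs and 6951 in menin-null mESCs, a log2 ratio of -0.93 (95% interval -0.97 to -0.89) or 52.6% of the wt value, which corresponds to 1.05 copies (1.02 to 1.08) if the wt line had 2. All 28 bins, which defined the segment, were below 0 (50% of all bins were), from -1.31 to -0.37, with a median of -0.93. The highest of them was the last bin, which straddles the edge. Against the 2 Mb on each side, where the ratio was -0.08, the segment was lower by a log2 of -0.85 (-0.90 to -0.79), and against bins of like GC share it was at -0.87.

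The edges of the distal segment were located in steps of 5 kb as the positions that best divide the tags into an outer and an inner ratio. The start lay at 107.355 Mb (107.35 to 107.36 within 2 units of log likelihood), in a region with no protein-coding gene, 39.4 kb beyond Vrk1, which encodes a kinase. The end lay at 112.845 Mb (112.84 to 112.87), inside Mark3, which encodes a kinase that regulates microtubules. In the PILEC inputs the same procedure, run on other libraries, put the start at 107.37 Mb and the end at 112.85 Mb, and the supported intervals of both stages overlapped at the end and lay 5 kb apart at the start.

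The segment overlaps 169 annotated genes, of which 46 are protein-coding, 12 are lincRNAs, 62 are microRNAs and 25 are snoRNAs. Among them is the Dlk1-Dio3 imprinted cluster, in which the protein-coding genes Dlk1, Rtl1 and Dio3 are expressed from the paternal copy and the noncoding RNAs Meg3, Rian and Mirg from the maternal copy. The tag counts used here do not tell the parental copies apart. All 7 listed members of the cluster lay inside the segment.

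Meg3, a noncoding RNA gene with growth-suppressing activity, had 105 input tags over its body in wt mESCs and 31 in menin-null mESCs, a log2 ratio of -1.59 (-2.22 to -0.998). Rian, the host of a large snoRNA cluster, had 120 and 35 tags, at -1.61 (-2.19 to -1.05). Mirg, the host transcript of many of the microRNAs, had 53 and 12 tags, at -1.97 (-3.01 to -1.05). These were the lowest ratios of the cluster and 2 of them, those of Rian and Meg3, were the lowest of all 9833 genes with at least 100 input tags. Dlk1, which encodes a Notch-like ligand of the cell surface, had 39 and 13 tags, at -1.41 (-2.44 to -0.48). Rtl1, a gene derived from a retrotransposon, had 38 and 14, at -1.27 (-2.27 to -0.35). Dio3, the deiodinase that inactivates thyroid hormone, had only 15 and 6 tags, and its interval of -2.80 to 0.30 includes 0. Begain, at the proximal side of the cluster, had 94 and 40 tags, at -1.06 (-1.63 to -0.51).

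The 3 bins from 110.4 to 111.0 Mb, which hold Dlk1, Meg3, Rtl1, Rian and Mirg and were singled out after their values had been seen, had 1272 wt and 478 menin-null input tags. Their ratio of -1.24 (-1.39 to -1.09), 42.3% of the wt value, was lower than that of the rest of the segment, at -0.90, by -0.34 (-0.50 to -0.18). In H3K4me3 tags of mESCs lying over 5 kb from any annotated start the same stretch differed from the rest of the segment by -0.25, with an interval of -0.57 to 0.06 that includes 0. The PILEC inputs differed there by -0.02 (-0.08 to 0.05). The contrast in the mESC inputs comes from the values by which the stretch was picked, and the mESC H3K4me3 interval holds both that contrast and 0.

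Outside the imprinted cluster the segment holds genes with other roles, of which 4 with many tags are given here beside Traf3, having been chosen after their values were seen. Bcl11b, a transcription factor of T-cell development, had 288 input tags in wt and 152 in menin-null mESCs, at -0.75 (-1.04 to -0.46). Ppp2r5c, a regulatory subunit of the phosphatase PP2A, had 519 and 220 tags, at -1.07 (-1.30 to -0.84). Wdr25 had 441 and 178 tags, at -1.14 (-1.40 to -0.88). Dync1h1, the heavy chain of cytoplasmic dynein, had 241 and 103 tags, at -1.05 (-1.40 to -0.72). Traf3, an adaptor of tumour necrosis factor receptors, had 289 and 154 tags, at -0.74 (-1.03 to -0.45). Each of these intervals lay below 0. Among its genes, 30 held 100 or more input tags, and 27 of these were below -0.5, beside 2.85% of the 9833 genes of that depth on all autosomes. The 30 genes ran from -1.61 to -0.06 with a median of -0.87, and the value of -0.06 belongs to Klc1, which reaches past the edge. These counts describe genes that the segment was defined to contain. The remaining 139 genes, the microRNAs and snoRNAs among them, held fewer than 100 tags each and were not counted.

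Esrrb, a nuclear receptor of the ES cell network, marks the end of the proximal segment of chromosome 12. This segment, from 85.8 to 87.8 Mb, held 5240 input tags in wt and 2591 in menin-null mESCs, a ratio of -0.84 (-0.91 to -0.78) or 55.7% of the wt value, which would be 1.11 copies (1.06 to 1.17) on the same condition. All 10 bins, which defined it, were below 0, from -1.12 to -0.39, and the segment was lower than its 2-Mb flanks by -0.82 (-0.90 to -0.73). Located more finely, it ran from 85.78 Mb, inside Aldh6a1, to 87.705 Mb (87.685 to 87.71), while the annotated body of Esrrb begins at 87.7021 Mb. The bins counted reach 87.8 Mb, so the ratio and copies above include some DNA beyond this end. The body of Esrrb lay almost wholly outside the loss, with 583 tags in wt and 496 in menin-null mESCs, at -0.06 (-0.24 to 0.11). In the PILEC inputs the end was placed at 87.695 Mb (87.655 to 87.715), and the interval overlaps that of the mESC inputs.

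The proximal segment holds 32 of the 21418 protein-coding genes on the autosomes. Among them are 3 of the 10 listed AP-1 genes, a list chosen with earlier results of these data known, which encode the Fos and Jun transcription factors and their relatives. Jdp2, a repressor of that family, had 150 input tags in wt and 58 in menin-null mESCs, at -1.20 (-1.66 to -0.75). Batf, an AP-1 factor of immune cells, had 67 and 31 tags, at -0.94 (-1.60 to -0.30). Fos itself is short and had 17 and 10 tags, with an interval of -1.88 to 0.62, but the 200 kb around it held 514 and 244 tags, at -0.90 (-1.13 to -0.68). Other members were the mismatch repair gene Mlh3, at -0.91 (-1.49 to -0.36), and the growth factor gene Tgfb3. Tgfb3 had 56 and 41 tags over its own body, an interval of -0.90 to 0.33, and the 200 kb around it were at -0.93 (-1.15 to -0.71). Of the 16 genes with at least 100 tags, 15 were below -0.5, beside 2.85% of all genes of that depth, and the other was Esrrb. The segment was defined by these same tags. Another 3 members of this segment were among the 10 genes with the lowest ratios on all autosomes, namely 1700020O03Rik at -1.33, the secretory pathway gene Tmed10 at -1.19 and Ylpm1 at -1.07.

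Other genes of the lists lie near these edges, outside the refined segments. Xrcc3, a homologous recombination gene, lies just past the end of the distal segment and had 57 and 47 tags, at -0.11 (-0.69 to 0.48), with -0.05 (-0.22 to 0.11) in the 200 kb around it. Akt1, a kinase of growth factor signalling, had 117 and 83 tags, at -0.32, with an interval of -0.75 to 0.10, while the 200 kb around it held 904 and 715 tags, at -0.17 (-0.31 to -0.02). Tcl1, an activator of Akt kinases that is expressed in mESCs, lies before the start of the distal segment and had only 20 and 24 tags, but the 200 kb around it held 434 and 332, at -0.21 (-0.42 to -0.0047). The surroundings of Akt1 and Tcl1 were thus slightly below 0 and closer to 0 than those of Fos and Tgfb3.

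The losses on chromosome 12 were also read in the other libraries, which the run rule did not use, although the segments were known from earlier results of these data. In H3K4me3 tags of mESCs over 5 kb from any annotated start (the background of the ChIP), the distal segment held 3479 tags in wt and 2596 in menin-null mESCs, at -0.64 (-0.71 to -0.57), and 27 of 28 bins were below 0. The proximal segment held 1169 and 920 such tags, at -0.56 (-0.69 to -0.44), and 9 of 10 bins were below 0. Against the 2-Mb flanks in these tags, the distal segment was at -0.92 (-1.03 to -0.81) and the proximal at -0.72 (-0.87 to -0.57). The flanks were themselves above the median bin, at 0.28 and 0.16, which enlarges these contrasts. In the PILEC inputs the distal segment held 51108 tags in wt and 42761 in menin-null PILECs, at -0.19 (-0.20 to -0.17), and the proximal segment 18287 and 15257, at -0.19 (-0.22 to -0.16). Every bin of both segments was below 0 in the PILEC inputs, 28 of 28 and 10 of 10, beside 50% of all bins. The PILEC H3K4me3 tags away from starts gave -0.18 (-0.21 to -0.16) and -0.17 (-0.21 to -0.13). The direction was therefore the same in all 4 pairs of libraries and its size differed, as the menin-null value in the distal segment, after scaling to the median bin, was 87.9% of the wt value in the PILEC inputs and 52.6% in the mESC inputs. The difference between the stages in log2 was 0.74 (0.70 to 0.79) for the distal and 0.65 (0.58 to 0.73) for the proximal segment. If the wt PILECs had 2 copies, the means over all menin-null PILECs would be 1.76 copies for the distal and 1.75 for the proximal segment. The share of PILECs that carried the losses was not tested.

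**Figure D3:**
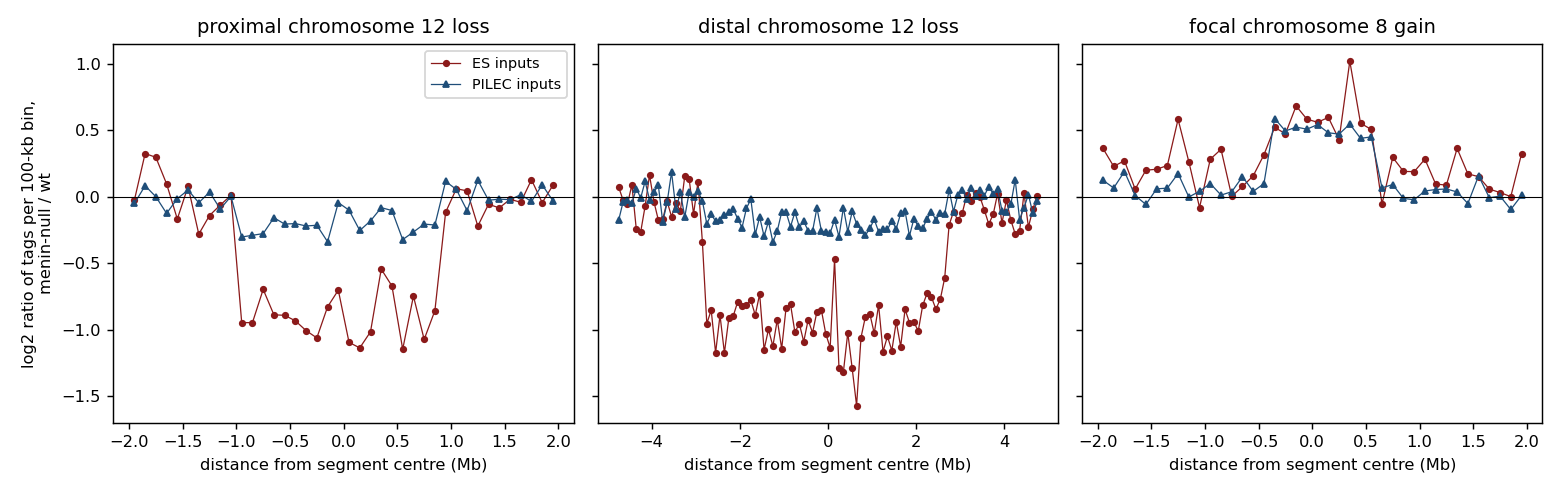
Log2 ratio of menin-null over wt input tags in 100-kb bins (y axis) by distance from the centre of the segment in Mb (x axis), for the proximal and distal losses on chromosome 12 and the focal gain on chromosome 8, in mESC inputs (circles) and PILEC inputs (triangles). The losses reach about -0.9 in mESCs and -0.2 in PILECs with edges at the same places, and the focal gain reaches about 0.5 in both.

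Chromosome 8 was raised along its whole length. It held 280725 input tags in wt and 282815 in menin-null mESCs, a ratio of 0.18 (0.18 to 0.19) or 113.5% of the wt value. This would be 2.27 copies on average if the wt line had 2, which was not tested. Of the 621 bins of chromosome 8, 597 were above 0, beside 47.4% of the bins of the other autosomes, and their median was 0.19. The bin medians of the other 18 autosomes ran from -0.11 on chromosome 1 to 0.03 on chromosome 10. The 13 blocks of 10 Mb along chromosome 8 with at least 10 kept bins had medians from 0.13 in the last of them to 0.27 between 50 and 60 Mb. The rise was thus not limited to a part of the chromosome. Without the 3 short segments named next, 599 bins had a median of 0.19.

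In the mESC H3K4me3 tags away from starts chromosome 8 again had the highest bin median of all autosomes, at 0.21, where the others ran from -0.16 to 0.09. Its median was also the highest of all autosomes in PILECs, by a small margin, at 0.025 in the inputs and 0.040 in the H3K4me3 tags, where the next, chromosome 14, was at 0.022 and 0.015. When each mESC input was set against both PILEC inputs together, among bins of like GC share, chromosome 8 was at 0.15 in wt mESCs and at 0.36 in menin-null mESCs. The 17 autosomes other than 8 and 11 lay between -0.03 and 0.10 in wt and between -0.05 and 0.05 in menin-null mESCs. Chromosome 8 was thus above the PILEC level in both mESC lines and further above it in the menin-null line. Chromosome 11 was below it in both, at -0.34 and -0.37, and its ratio between the lines was -0.06. The PILEC libraries are themselves of 2 genotypes, and a change shared by both PILEC lines would appear here as the opposite change in both mESC lines.

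**Figure D4:**
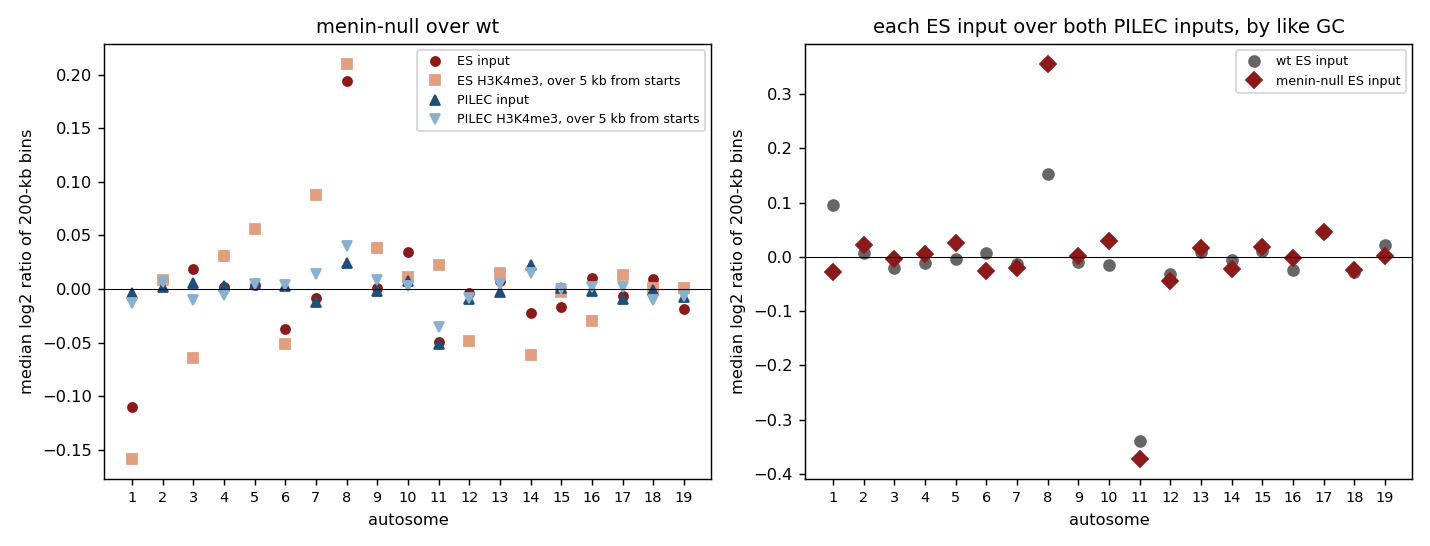
Median log2 ratio of the 200-kb bins of each autosome (y axis) by autosome (x axis), on the left for menin-null over wt in 4 pairs of libraries and on the right for each mESC input over both PILEC inputs. Chromosome 8 is at 0.19 in the mESC inputs and 0.02 in the PILEC inputs, and on the right it is at 0.15 in wt and 0.36 in menin-null mESCs while chromosome 11 is at -0.34 and -0.37.

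Chromosome 8 overlaps 1641 annotated genes, of which 1081 are protein-coding, in the span from its first to its last kept bin. Members of the lists include Klf2, a pluripotency factor, Zfp42, a zinc finger marker of mESCs, Ash2l, a core subunit of the H3K4 methyltransferase complexes, and the AP-1 genes Junb and Jund. Jund encodes a transcription factor to which menin binds. The 200 kb around each of these 5 genes held more menin-null tags for their depth, with ratios of 0.10 (-0.04 to 0.25) around Klf2, 0.30 (0.10 to 0.50) around Zfp42, 0.34 (0.17 to 0.50) around Ash2l, 0.20 (0.06 to 0.33) around Junb and 0.13 (0.01 to 0.25) around Jund. The interval around Klf2 includes 0. The gene bodies held few tags, and every interval included 0, at 0.28 (-0.54 to 1.11) for Klf2, -0.19 (-0.90 to 0.52) for Zfp42, -0.06 (-1.09 to 0.94) for Junb and -0.18 (-1.05 to 0.68) for Jund. That of Ash2l, with 115 tags in wt and 102 in menin-null mESCs, was at 0.00 (-0.40 to 0.40).

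A shorter gain stood out on top of this, from 106.6 to 107.8 Mb on chromosome 8. It held 3010 input tags in wt and 3839 in menin-null mESCs, a ratio of 0.52 (0.45 to 0.59) or 143.7% of the wt value. This would be 2.87 copies (2.74 to 3.02) if the wt line had 2. The bins counted start before the edge at 106.76 Mb given below. These values, and those of the other libraries, therefore include some DNA outside that edge. All 6 bins, which defined the segment, were above 0 (50% of all bins were), from 0.24 to 0.75, and the segment exceeded its 2-Mb flanks, which were at 0.16, by 0.36 (0.28 to 0.44). Its edges lay at 106.76 Mb (106.73 to 106.83), inside the thymidine kinase gene Tk2, and at 107.78 Mb (107.78 to 107.785), between B3gnt9-ps and Tradd. In the PILEC inputs, where the whole chromosome was near 0, the same stretch held 10296 and 13236 tags, at 0.43 (0.40 to 0.47), and it exceeded its flanks by 0.39 (0.35 to 0.43). It was the only run that the same rule found in the PILEC inputs. There its edges were at 106.775 Mb (106.765 to 106.78), in Cklf, and at 107.795 Mb (107.78 to 107.795), in Hsf4. H3K4me3 tags away from starts gave 0.59 (0.43 to 0.74) in mESCs and 0.51 (0.45 to 0.57) in PILECs. The ratio of this stretch thus lay between 0.43 and 0.59 in all 4 pairs of libraries. In mESCs this ratio includes the rise of the whole chromosome. Over its flanks the stretch was at 0.27 (0.10 to 0.44) in the H3K4me3 tags of mESCs and at 0.48 (0.41 to 0.55) in those of PILECs.

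The focal gain overlaps 36 protein-coding genes. They include Tk2, at the edge placed from the mESC inputs, and the chemokine-like family Cklf, Cmtm1, Cmtm2a, Cmtm2b, Cmtm3 and Cmtm4. Others are the carboxylesterase genes of the Ces2, Ces3 and Ces4 families, and Cbfb, which encodes the partner subunit of the Runx transcription factors. Tk2 was at 0.21 (-0.26 to 0.68) in the mESC inputs and at -0.09 (-0.36 to 0.17) in the PILEC inputs. Among the genes below, Ccdc79 is one of the 10 highest of all genes and the others were chosen after their values were seen. Cbfb had 108 input tags in wt and 141 in menin-null mESCs, at 0.56 (0.19 to 0.93), and 0.59 in the PILEC inputs. Cmtm4 had 171 and 217 tags, at 0.52, and 0.54 in PILECs. Dync1li2, a light intermediate chain of cytoplasmic dynein, had 100 and 134 tags, at 0.59, and Ccdc79 had 83 and 129, at 0.81 (0.40 to 1.22). The carboxylesterase genes are close relatives, between which unique alignment can leave tags out, and their single values are uncertain. All 13 genes of at least 100 tags were above 0, from 0.03 to 0.81, and 8 were above 0.5, beside 1.31% of all genes of that depth, but these tags also defined the segment. The lowest were Cdh5 and Bean1, at 0.03 and 0.08, which precede the refined edge.

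H3K4me3 within 1 kb of the start was also compared for the protein-coding genes of these segments with at least 50 such tags, after scaling to the total tags of each library. These tags hold the mark and the copies together, which cannot be told apart. In the mESC H3K4me3 libraries, tags at a position and strand already seen made up 11.3% in wt and 4.15% in menin-null. The promoter comparison was not repeated with duplicates counted once. In mESCs all 20 promoters of the proximal chromosome 12 segment and 28 of 32 of the distal segment were below 0, beside 20.5% of the 11428 promoters on all autosomes, with medians of -0.71 and -0.47 beside 0.26 for all. In the focal gain all 18 promoters were above 0, beside 79.5% of all, with a median of 0.47. In PILECs 25 of 27 and 32 of 34 promoters of the proximal and distal segments were below 0, beside 70.6% of all, and 14 of 19 of the focal gain were above 0, beside 29.4%.

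The distal part of chromosome 1, from 103.6 Mb to the end at 197.0 Mb, was lower by less than a copy over a long distance. It held 175068 input tags in wt and 132961 in menin-null mESCs, at -0.22 (-0.23 to -0.21) or 85.6% of the wt value, and 439 of its 466 bins were below 0 (50% of all bins were). This domain and those of chromosomes 6 and 10 were found from these same bins, so their bin counts, ratios and contrasts with flanks in the mESC inputs are descriptions. The change began near 107.1 Mb (105.6 to 107.7), between Cdh20 and Rnf152. Its PILEC inputs were at -0.01 (-0.02 to -0.01). Set against both PILEC inputs, this part of chromosome 1 was at 0.18 in wt mESCs and at -0.05 in menin-null mESCs, so the wt value lay further from the PILEC level. The stretch overlaps 636 protein-coding genes, with Rbbp5, a subunit of the methyltransferase complexes, and Atf3, an AP-1 factor induced by stress, among the listed ones. The 200 kb around Rbbp5 were at -0.19 (-0.36 to -0.02) and those around Atf3 at -0.34 (-0.52 to -0.17).

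A stretch of chromosome 10 from 48.8 to 74.2 Mb was higher. It held 35116 input tags in wt and 36754 in menin-null mESCs, at 0.24 (0.22 to 0.26) or 117.9% of the wt value, with 122 of 127 bins above 0 (50% of all bins were), and it exceeded its flanks by 0.30 (0.27 to 0.33). Its edges were at 48.8 Mb (48.4 to 49.1), just before the glutamate receptor gene Grik2, and at 74.4 Mb (73.6 to 74.4), beyond the protocadherin gene Pcdh15. The PILEC inputs were at 0.03 (0.02 to 0.04). Against the PILEC inputs the wt mESC input was at -0.23 and the menin-null mESC input at 0.00, so here too the wt value lay further from the PILEC level. It overlaps 147 protein-coding genes and none of the listed ones.

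A stretch of chromosome 6 from 101.6 to 136.8 Mb was lower, with 65117 tags in wt and 51019 in menin-null mESCs, at -0.18 (-0.20 to -0.16), and 151 of 174 bins below 0 (50% of all bins were). Its edges were placed at 98.2 Mb (98.1 to 98.8), inside Gm765, and at 139.4 Mb (137.3 to 140.4), before Rergl. The PILEC inputs were at -0.01, with an interval of -0.01 to 0.00. Against the PILEC inputs wt mESCs were at 0.08 and menin-null mESCs at -0.07, and the difference of either line from the PILEC level was not tested. The stretch holds the pluripotency genes Nanog and Dppa3 and the cell cycle inhibitor Cdkn1b. The 200 kb around them were at -0.10 (-0.28 to 0.07), -0.14 (-0.32 to 0.04) and -0.33 (-0.51 to -0.14).

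The 5 remaining short runs lay inside these larger domains and stood out little from them. On chromosome 1 they were at 114.0 to 115.0, 132.0 to 133.2 and 157.6 to 158.8 Mb, with bin medians of -0.32, -0.43 and -0.35. Against their own 2-Mb flanks they were at -0.01 (-0.17 to 0.15), -0.12 (-0.22 to -0.03) and -0.10 (-0.19 to 0.00). On chromosome 8 they were at 38.8 to 40.4 and 54.6 to 56.2 Mb, with medians of 0.37 and 0.32, and against their flanks at 0.15 (0.04 to 0.26) and 0.04 (-0.08 to 0.16). None of the 5 was found by the same rule in the PILEC inputs.

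**Figure D5:**
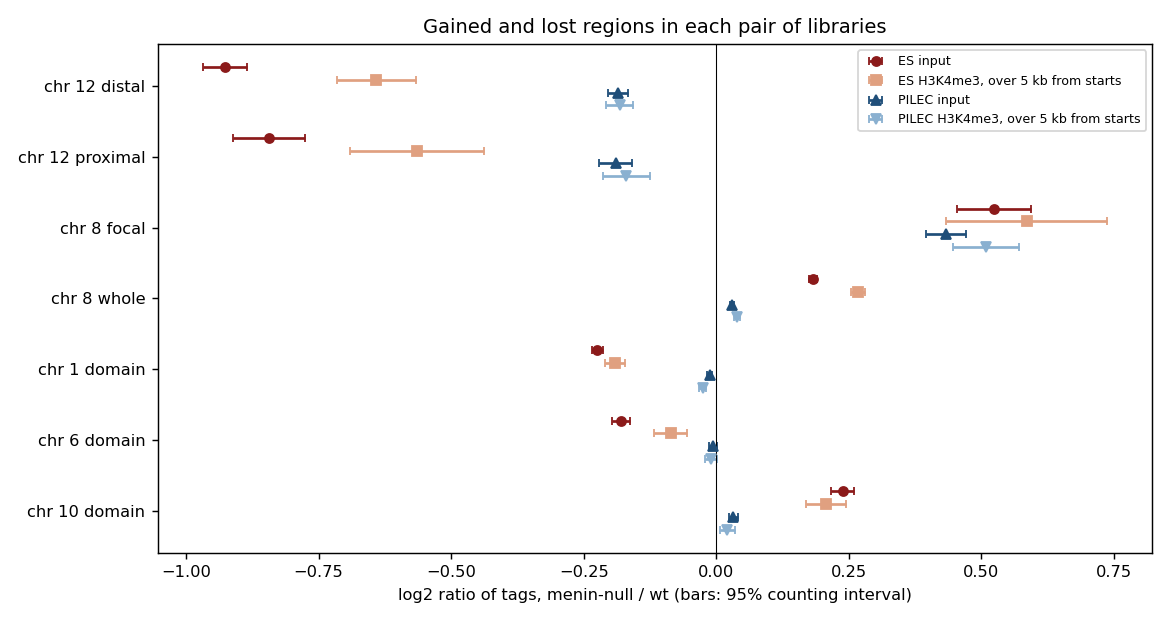
Log2 ratio of menin-null over wt tags (x axis) for 7 regions (rows) in 4 pairs of libraries (symbols), with bars for the 95% counting interval. The focal gain on chromosome 8 lies between 0.43 and 0.59 in every pair, which in mESCs includes the rise of the whole chromosome. The losses on chromosome 12 are larger in mESCs than in PILECs. Chromosome 8 and the domains of chromosomes 1, 6 and 10 are displaced in mESCs and close to 0 in PILECs.

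Of the 9833 genes with at least 100 input tags, 280 (2.85%) had a gene-body ratio below -0.5 and 129 (1.31%) above 0.5. The lower ones include 27 genes of the distal and 15 of the proximal chromosome 12 segment, and the other 238 lie elsewhere. With bins of like GC share as the reference, 221 genes were lower and 165 higher. The higher ones by the main reference include 40 genes on chromosome 8, 8 of them in the focal gain. Of the 9833 genes, 653 lie on chromosome 8, 13 of them in the focal gain. The median depth of the lower genes was 136 tags and that of the higher genes 127, against 219 for all. The 10 lowest genes were Rian, Meg3, 1700020O03Rik, Jdp2, Tmed10, Stk30, Adam33, Wdr25, Stat5a and Ylpm1, all but Adam33 and Stat5a in the chromosome 12 segments. Adam33, a metalloprotease gene on chromosome 2, had 77 and 31 tags, at -1.14, but the 200 kb around it were at -0.11 (-0.29 to 0.07). Stat5a, a mediator of cytokine signalling on chromosome 11, had 92 and 38 tags, at -1.10, with -0.14 (-0.31 to 0.04) around it. No loss of the surrounding 200 kb was thus detectable for either.

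The 10 highest genes were Coq9, Nat3, Rnf103, Gpbp1l1, 6820431F20Rik, 2410042D21Rik, Kctd19, Nlrp4e, Ccdc79 and Snapc3, of which 5 are on chromosome 8 and 1, Ccdc79, is in the focal gain. Chromosome 8 holds 653 of the 9833 genes of that depth. Coq9, a gene of coenzyme Q synthesis, had 34 tags in wt and 72 in menin-null mESCs, at 1.25 (0.65 to 1.89). Coq9 in the PILEC inputs was at -0.38 (-0.71 to -0.05), in the other direction. Kctd19 had 82 and 128 tags, at 0.81 (0.40 to 1.23), and in PILECs 0.05 (-0.18 to 0.28). Of these 10 genes Ccdc79 was the only one with a PILEC interval above 0. A PILEC interval excluding 0 on either side was found for 15 of the 129 higher genes and 40 of the 280 lower genes. Among all 9833 genes of that depth there were 666.

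Of the listed genes of growth control and DNA repair, 3 of 24 lay in the chromosome 12 segments, which together hold the 32 and 46 of the 21418 autosomal protein-coding genes given above, namely Mlh3, Tgfb3 and Traf3, and Cdkn1b lay in the chromosome 6 domain. Of 13 with at least 100 tags, 2 were below -0.5, beside 2.85% of all genes of that depth, and none was above 0.5. Both of them, Mlh3 and Traf3, lie in segments defined by the same ratio, and the list was chosen with earlier results of these data known. Of the 15 listed genes of menin and the H3K4 methyltransferase complexes on autosomes, none lay in the chromosome 12 segments or the focal gain, and 13 had at least 100 tags, with none past 0.5 in either direction, beside 4.16% of all genes of that depth. Men1 itself fell under this limit, with 43 tags in wt and 16 in menin-null mESCs. Its gene body was at -1.25 (-2.18 to -0.40), and at -1.14 (-1.82 to -0.49) in the PILEC inputs. Of the 17 listed ES cell regulators, 15 were found by name on the annotated autosomes, and Tfcp2l1 and Nr0b1 were not among them. Of these 15 only Esrrb touched a chromosome 12 segment, at its edge, and of the 3 with at least 100 tags none was past 0.5.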

How the data were processed

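Libraries of 36-bp single reads were sequenced by the authors from input and H3K4me3 chromatin of wt and menin-null mESCs and PILECs, 1 library each, and aligned to mm9, the build named in the submitters' processing notes. The aligner is not given in the sources used here. The deposited files hold 1 line for each uniquely aligned tag, with start, end and strand, and a deposited score from 4 to 119 that was checked but not used. The methods of the study state at most 2 mismatches, and 1.21% of the wt and 1.03% of the menin-null mESC input tags list more.

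Tags were counted by their 5' position in 200-kb bins (pysam 0.24.0, pandas 2.3.3, numpy 2.4.6, scipy 1.17.1, matplotlib 3.10.9). Bins were kept with at least 100 tags over both inputs and at most 4 times the median, which left out 545. Log2 ratios were centred on the median kept bin. Intervals are exact conditional binomial (Clopper-Pearson) 95% intervals, and contrasts with flanks, stages or the rest of a segment used normal intervals of the log ratio. They cover counting error only, since reads without molecular identifiers are not independent molecules, and with 1 library a side no test between genotypes was made. A pooled log2 ratio over a segment sums its tags, whereas chromosome medians are over bins. Edges maximised the binomial likelihood of an inner and an outer ratio, in steps of 5 kb for short and 100 kb for broad segments. Flanks were 2 Mb for short segments and 10 Mb for broad domains. For each mESC input over both PILEC inputs, the median of bins of like GC share (20 strata) was subtracted. The scripts were tested on simulated data.

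Genes were named if they were Men1, members of the gene lists lying in a segment or on chromosome 8, at an edge of a segment, or among the 10 with the largest gene-body ratio in each direction with at least 100 tags. Genes named outside this rule are stated as such or lie just outside an edge or in a broad domain. The regions and gene lists were chosen with earlier results of these data known. Alternatives were duplicates counted once, at most 2 mismatches, scaling by total tags, GC strata, tags moved by 125 bp, other bin sizes, tag limits, folds and run lengths, and H3K4me3 tags over 20 kb from starts. Some parts were chosen after seeing the data. These were contrasts with flanks, chromosome 8 without its short segments, and the wider scan with its alternatives. The focal gain ratio of the mESC inputs with its alternatives was also among them.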

Additional observations from a re-analysis of the deposited data

Results flagged for a closer look

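The mESC and PILEC inputs of the same lines differed in 7 regions, each listed because the counting interval of the difference between the stages excluded 0. All 7 regions were delimited from the mESC input ratios that enter these differences, so smaller PILEC ratios were favoured beforehand. With 1 library for each line and stage, none of these differences was tested over replicates. Taken as the PILEC log2 ratio less the mESC log2 ratio, the difference was 0.74 (0.70 to 0.79) for the distal segment of chromosome 12 and 0.65 (0.58 to 0.73) for the proximal segment. Both losses, from Aldh6a1 to Esrrb and from beyond Vrk1 to Mark3, were present at both stages and smaller in PILECs. The difference was -0.15 (-0.16 to -0.14) for chromosome 8, 0.21 (0.20 to 0.22) for the distal part of chromosome 1, 0.17 (0.15 to 0.19) for the stretch of chromosome 6 with Nanog and Dppa3, and -0.21 (-0.23 to -0.18) for the stretch of chromosome 10 between Grik2 and Pcdh15. In these 4 the PILEC ratio lay between -0.01 and 0.03. The focal gain on chromosome 8 differed by -0.090 (-0.17 to -0.01), the smallest of the 7 differences. This value includes the rise of the whole chromosome in mESCs. Over its 2-Mb flanks the focal gain was at 0.36 (0.28 to 0.44) in the mESC inputs and at 0.39 (0.35 to 0.43) in the PILEC inputs. The 5 short runs inside the larger domains, which differed from -0.31 to 0.34, are counted with their domains. Passage numbers and the share of mESCs that gave rise to PILECs were not analysed here, and their part in these differences was not tested.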

How the results depend on the processing

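No paired analysis was possible because each line had 1 input library at each stage and no replicate numbers. No ratio of a named region changed its sign. Men1 exons 3 to 8 stayed at 0 tags in menin-null mESCs when duplicates were counted once or tags were moved to the fragment middle, and the proximal chromosome 12 segment kept its value within counting error under all alternatives. The distal segment was at -0.87 against bins of like GC share and at -0.85 against its flanks, and chromosome 8 was at 0.19 when scaled by total tags and at 0.20 against bins of like GC share. In mESC H3K4me3 tags chromosome 8 was at 0.27 over 5 kb and at 0.23 over 20 kb from starts. The cause of these shifts was not tested.

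The counts depended on bin size, limits and thresholds. In place of 79 bins past the fold (50 lower and 29 higher) there were 502 with 100-kb bins (241 lower and 261 higher). There were 16 with 500-kb bins (15 and 1) and 130 with no tag limits (78 and 52). Past a log2 of 0.3 there were 661 (286 lower and 375 higher), and past 1 there were 12, all lower. In place of 8 runs (5 losses and 3 gains) there were 52 with 100-kb bins (23 losses and 29 gains), 1 with 500-kb bins, 2 with a running median over 0.5, 58 with one over 0.2 (22 and 36), 33 with at least 3 bins (16 and 17) and 2 with at least 10. Leaving out tags with over 2 mismatches gave 12 runs (8 and 4) and counting duplicates once gave 10 (7 and 3). Among bins and runs, gains outnumbered losses with 100-kb bins and at the looser thresholds, while losses led with 500-kb bins and with no tag limits. Against bins of like GC share 10 runs were found, 8 of them losses, while scaling by total tags gave 10 with 5 losses. Genes past the fold numbered 409 with at least 100 tags (280 lower and 129 higher). With at least 50 tags there were 1224 (832 and 392), and with at least 300 there were 22 (18 and 4). The broad domains, which were found after seeing the data, kept their directions, with chromosome 1 at -0.19, chromosome 6 at -0.13 and chromosome 10 at 0.30 against their flanks.

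At a median of 318 wt and 285 menin-null tags a bin, counting alone spreads the log2 ratio of a single 200-kb bin with an SD of about 0.12, and genes under 100 tags, which were not counted among those past the fold, have wide intervals.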

Other observations

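On the X chromosome, which was left out of the bins, the wt mESC input held 83672 tags and the menin-null mESC input 75958, a log2 ratio of 0.03 (0.02 to 0.05), and the PILEC inputs were at 0.01. On the Y chromosome the mESC inputs held 846 and 837 tags, at 0.16 (0.02 to 0.30), and the PILEC inputs 5102 and 4400, at -0.14 (-0.20 to -0.08). The 2 ratios had opposite signs, but that of the mESCs rests on few tags. GC strata were not applied to the Y chromosome.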
